A study of Arabidopsis thaliana with 27 samples.

Results

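The 10 genes described here encode enzymes of leaf starch metabolism in Arabidopsis thaliana, and they were taken by gene identifier from a table of 33039 genes. They are GBSS1 (AT1G32900), APL3 (AT4G39210), SEX1 (AT1G10760), PWD (AT5G26570), SEX4 (AT3G52180), BAM1 (AT3G23920), BAM3 (AT4G17090, listed in the table as CT-BMY), DPE1 (AT5G64860), DPE2 (AT2G40840) and ISA3 (AT4G09020). All 10 were present in the table and all 10 passed the expression filter used for testing, which kept the 21396 genes that reached 1 TPM in 3 or more libraries. TPM is a relative abundance scaled to the same total in each library and corrected for gene length, so levels can be set against each other between genes.

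Whole seedlings were profiled by mRNA sequencing in 27 libraries, 3 for each of 9 groups. Wild type (Columbia) was set beside a line carrying the S364P change in EARLY FLOWERING 3 (ELF3), here called the S364P line, and a mutant whose ELF3 gene is disrupted by a T-DNA, here called the insertion line. Each genotype was sampled at 16, 22 and 29 °C without any other treatment named in the labels. ELF3 holds together the evening complex, a transcriptional repressor of the circadian clock that also responds to ambient temperature, and the study asks what the changed serine does to it. The protocol names the lines as elf3 mutants ELF3-16 and ELF3-101 in the Columbia background. The sources used here do not give the age of the seedlings or the position of the insertion, and each mutation is represented by 1 line. Zeitgeber times of 8, 16 and 24 h are listed in parallel with the 3 temperatures, so temperature and time of day cannot be told apart, whereas genotypes compared at 1 temperature share both. Nothing in the labels says that the replicates were grown separately, so p-values measure only how far these samples spread, and that spread may be technical.

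Leaves store part of the day's photosynthate as starch in chloroplasts and break it down during the night. ADP-glucose pyrophosphorylase makes the glucosyl donor, and starch synthases build the 2 polymers, of which amylose is made by granule-bound starch synthase. Breakdown starts when glucan, water dikinase (SEX1) and phosphoglucan, water dikinase (PWD) add phosphate to the granule surface. The phosphatase SEX4 then removes the phosphate while beta-amylases (BAM1, BAM3) release maltose and isoamylase 3 (ISA3) cuts the branches. DPE1 recycles short glucans in the chloroplast, and DPE2 processes exported maltose in the cytosol. Transcripts of many of these enzymes are known to cycle over the day in Arabidopsis leaves.

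The stretches around the annotated gene starts of 6 members are shown because 4 of them share a letter sequence of the clock and the other 2 are the members whose transcripts fell furthest in both lines. Each stretch is RefSeq sequence of TAIR10.1, runs 5′ to 3′ on the strand of the gene, and covers 100 bases before and 25 bases from the annotated start. Capitals mark matches, on either strand, to the evening element (AAAATATCT, reverse complement AGATATTTT) or the G-box (CACGTG).
SEX1 (chr1:3590904-3591028, minus strand): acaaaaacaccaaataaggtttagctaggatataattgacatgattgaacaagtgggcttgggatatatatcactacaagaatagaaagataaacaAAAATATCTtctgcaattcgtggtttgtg
PWD (chr5:9261379-9261503, plus strand): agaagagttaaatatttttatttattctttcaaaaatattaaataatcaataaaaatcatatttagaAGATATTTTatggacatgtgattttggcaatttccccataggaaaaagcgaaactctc
DPE1 (chr5:25928855-25928979, minus strand): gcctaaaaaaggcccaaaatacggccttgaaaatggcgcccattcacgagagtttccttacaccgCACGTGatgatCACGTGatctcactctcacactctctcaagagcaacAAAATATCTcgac
ISA3 (chr4:5783809-5783933, plus strand): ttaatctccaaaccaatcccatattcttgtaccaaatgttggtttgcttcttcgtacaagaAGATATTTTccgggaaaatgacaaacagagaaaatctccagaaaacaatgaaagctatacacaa
GBSS1 (chr1:11923842-11923966, minus strand): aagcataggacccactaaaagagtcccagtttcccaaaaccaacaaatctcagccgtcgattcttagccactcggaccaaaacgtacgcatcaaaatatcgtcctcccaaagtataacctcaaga
BAM3 (chr4:9607378-9607502, minus strand): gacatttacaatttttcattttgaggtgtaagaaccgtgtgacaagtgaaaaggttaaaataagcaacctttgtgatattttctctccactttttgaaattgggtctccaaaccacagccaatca

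In windows from 250 bases before to 50 bases after the annotated start, SEX1, PWD, DPE1 and ISA3 each held 1 evening element, and 2.8% of 27443 windows of protein-coding genes held one. The elements of PWD and ISA3 lie before the start, that of SEX1 spans it (-4 to 5) and that of DPE1 follows it (13 to 21). The window was extended past the start after the upstream part had been examined, and without the extension SEX1 and DPE1 would hold none. DPE1 held a pair of G-boxes before its start and ISA3 held 1 after it, against 7.7% of all windows with at least 1. A CCA1-binding site (AAAAATCT) was present in the window of DPE2 alone among the 10 members, against 7.9% of all windows. A LUX-binding site (GATTCG or GATACG) was present in that of PWD alone, against 14.5%. These motifs do not overlap one another in the members. GBSS1, APL3, SEX4, BAM1 and BAM3 held none of these letter sequences in this window. A match is a description of the letters and not a measured binding site.

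The members split into 2 patterns. GBSS1 and BAM3 transcripts were lower than in wild type in both lines at all 3 temperatures. The phosphorylation, dephosphorylation, debranching and disproportionation genes (SEX1, PWD, SEX4, ISA3, DPE1, DPE2) were not higher in either line at 16 °C, and at 29 °C all 6 were higher in both. The ADP-glucose pyrophosphorylase subunit gene APL3 was higher in both lines at 29 °C alone. BAM1 was lower in the insertion line at 16 and 22 °C and in the S364P line at 22 °C. Both lines are compared with the same wild-type libraries, so their differences are not separate evidence.

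**Figure D1:**
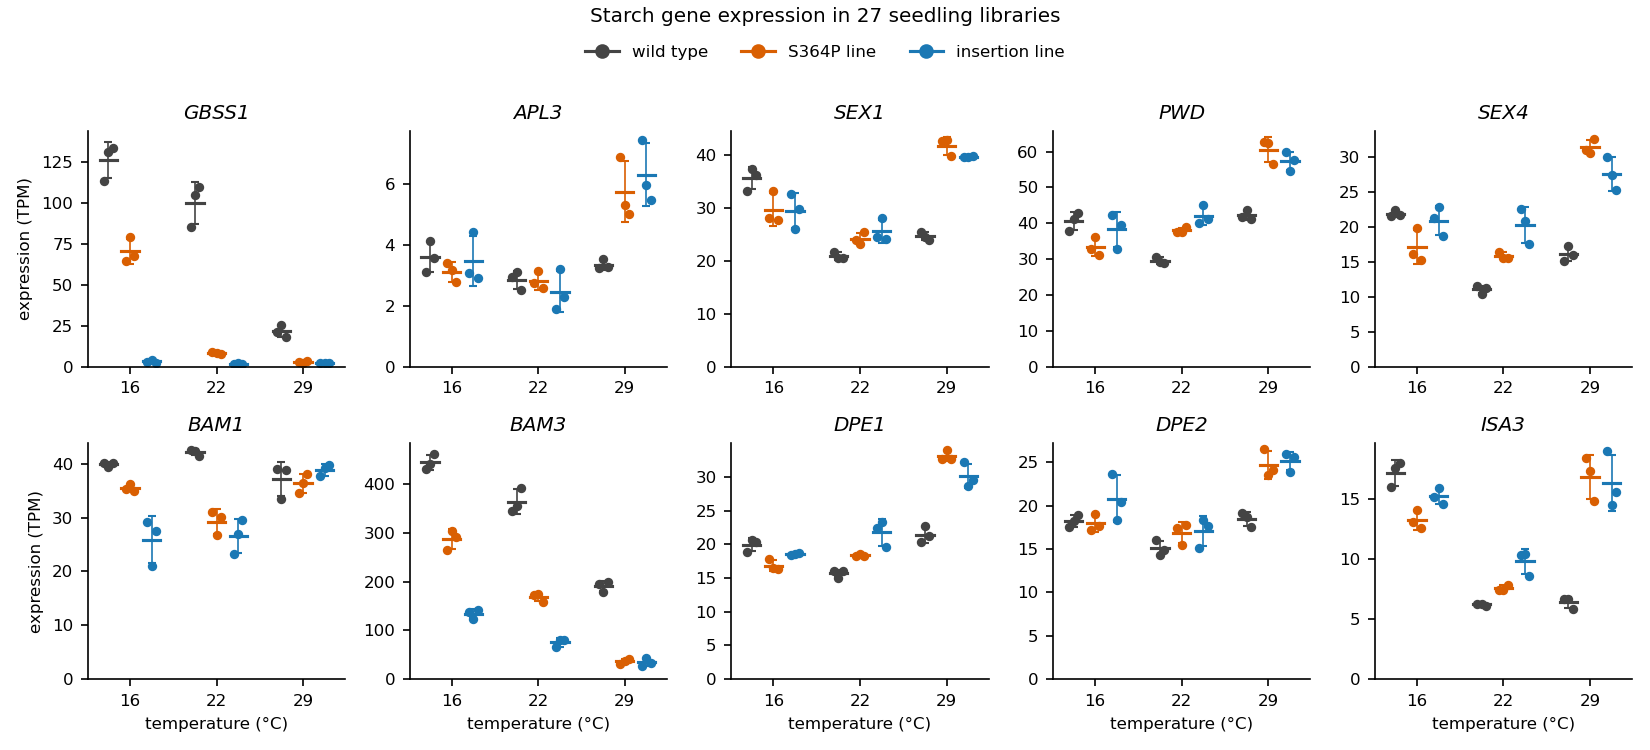
Expression in TPM (linear axes from 0) of the 10 members in each library, by temperature (°C) and genotype; points are libraries, horizontal bars the mean of 3 and vertical bars ± 1 SD. GBSS1 and BAM3 are highest in wild type at each temperature, with wild-type group means of 126 and 444 TPM at 16 °C. At 29 °C their group means are 2.96 and 36.3 TPM in the S364P line and 2.26 and 34.6 TPM in the insertion line. SEX1, PWD, SEX4, DPE1 and DPE2 peak in the 2 lines at 29 °C.

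In counts, 4 of 10 members were lower in the insertion line at 16 °C (GBSS1, BAM3, BAM1 and SEX1) and 0 were higher in limma, against 10.7% of all tested genes lower and 15.5% higher. At an unadjusted p under 0.05, 4 were lower and 1 was higher. At 22 °C 5 were higher and 3 lower, against 24.6% and 18.4% of all tested genes. At 29 °C 7 were higher and 2 lower, against 24.8% and 13.5%. In the S364P line at 16 °C 2 were lower (GBSS1 and BAM3) and 0 were higher, against 0.738% and 0.710% of all tested genes. At an unadjusted p under 0.05 the count there was 7 lower and 0 higher. The share of all tested genes at an unadjusted p was not taken. The unadjusted counts at 16 °C therefore cannot be set against the shares given here, which are at adjusted p. The count of lower members was 4 with median-of-ratios scaling, with PWD and ISA3 added. It was 5 without replicate 2 of that group, with SEX1, PWD and SEX4 added. At 22 °C 5 were higher and 3 lower in the S364P line, against 17.3% and 19.9%, and at 29 °C 7 were higher and 2 lower, against 24.5% and 13.7%. The count of 8 called at 22 °C was 6 on leaving out any 1 of the 6 libraries, with SEX1 and ISA3 lost. The median log2 difference of the 10 members from wild type was 0.45 in the insertion line and 0.56 in the S364P line at 29 °C, beside medians of 0.09 and 0.07 over all tested genes. At 16 °C it was -0.13 and -0.27, beside 0.03 and -0.01. A gene is called here at an adjusted p under 0.05 in limma, and differences are in log2 units of TPM + 1, a scale that understates the change of genes at low TPM.

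**Figure D2:**
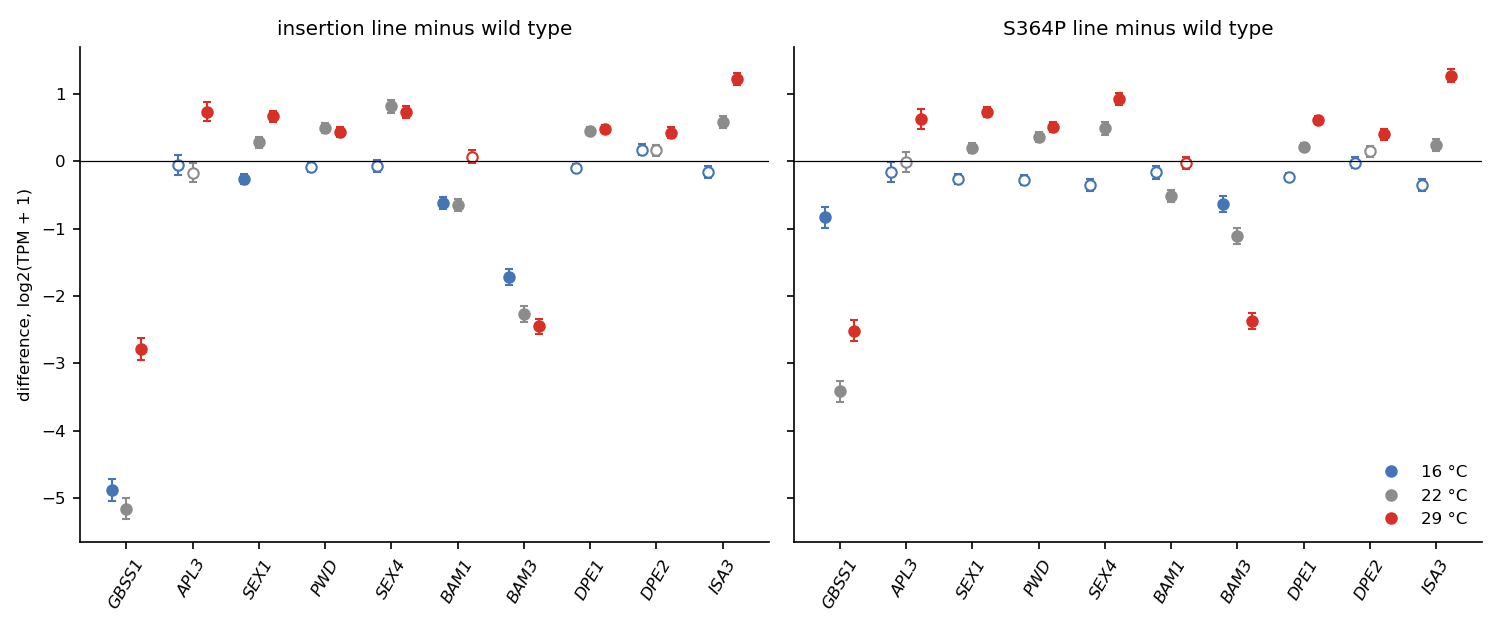
Differences from wild type on the log2(TPM + 1) scale (y axis) for the 10 members (x axis) in the insertion line and the S364P line at 16, 22 and 29 °C; bars are ± 1 SE and filled points are called at adjusted p under 0.05. GBSS1 and BAM3 are filled and below 0 in all 6 comparisons, and ISA3 moves from open points below 0 at 16 °C to filled points at 1.23 and 1.27 at 29 °C.

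GBSS1 encodes granule-bound starch synthase, the enzyme that makes amylose. Its transcripts were the most variable of the 10, with a 68.0-fold range between the highest and the lowest group mean. Wild-type libraries at 16 °C were at 114, 131 and 134 TPM, those of the S364P line at 64.7, 79.3 and 67.4, and those of the insertion line at 3.15, 4.42 and 2.57. At 22 °C the libraries were at 85.2, 105 and 109.9 TPM in wild type, at 9.23, 8.37 and 7.76 in the S364P line and at 1.73, 2.46 and 1.38 in the insertion line. At 29 °C they were at 21.4, 25.4 and 18.1 TPM in wild type, at 2.64, 2.53 and 3.71 in the S364P line and at 2.59, 2.03 and 2.17 in the insertion line. At each temperature every library of both lines was below every wild-type library, and at 16 and 22 °C the S364P libraries also lay above all insertion-line libraries. At 29 °C the ranges of both lines overlapped, since the lowest S364P library (2.53 TPM) was below the highest insertion-line library (2.59 TPM).

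The insertion line differed from wild type in GBSS1 by -4.88 ± 0.159 (SE) at 16 °C, -5.15 at 22 °C and -2.78 at 29 °C (limma, adjusted p = 5.79e-16, 1.24e-16 and 5.48e-12, n = 3 per group). The S364P line differed by -0.83 at 16 °C, -3.41 at 22 °C and -2.51 at 29 °C (adjusted p = 0.00477, 3.26e-13 and 3.21e-11). From the highest group mean down, the order was wild type at 16 °C, wild type at 22 °C, the S364P line at 16 °C, wild type at 29 °C and the S364P line at 22 °C, with no overlap between neighbours. The last 4 groups, the insertion line at 16 °C, the S364P line at 29 °C and the insertion line at 29 and 22 °C, had means of 3.38 to 1.86 TPM, and the ranges of neighbours among them overlapped. Starch synthase 1 (SS1), which extends amylopectin chains, served as a within-library reference chosen after the values were seen. The ratio of GBSS1 to SS1 was 1.68 ± 0.0896 (SD, n = 3) in wild type at 16 °C, 0.801 ± 0.0846 in the S364P line and 0.0444 ± 0.0155 in the insertion line.

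BAM3 encodes the main chloroplast beta-amylase of leaf starch breakdown at night. It was the most abundant member in wild type at each temperature and had a 12.8-fold range of group means. Wild-type libraries at 16 °C held 430.5, 441 and 462 TPM, the S364P line 265, 304 and 292, and the insertion line 139, 123.2 and 141. Wild-type libraries at 22 °C held 345, 354 and 392 TPM, the S364P line 173, 174 and 159, and the insertion line 65.3, 79.4 and 80.7. The 3 genotypes did not overlap at 16 or 22 °C, and the S364P line lay between wild type and the insertion line. Wild-type libraries at 29 °C held 196, 179 and 199 TPM, the S364P line 30.8, 37.0 and 41.2, and the insertion line 27.7, 42.7 and 33.5. There both lines were below all wild-type libraries and overlapped each other.

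BAM3 differed from wild type in the insertion line by -1.72 ± 0.118 at 16 °C, -2.27 at 22 °C and -2.45 at 29 °C (limma, adjusted p = 1.7e-10, 8.25e-13 and 3.29e-13). The S364P line differed by -0.63 at 16 °C, -1.10 at 22 °C and -2.37 at 29 °C (adjusted p = 0.00385, 1.96e-07 and 5.85e-13). Of the 8 neighbouring pairs in its order of group means, 1 overlapped in range, that of both lines at 29 °C.

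BAM1 encodes the other catalytically active beta-amylase in this set, known for roles in guard cells and in stressed leaves. It stayed within 25.9 to 42.2 TPM over the 9 group means, a 1.63-fold range. Wild-type libraries at 22 °C were at 42.6, 42.3 and 41.5 TPM, above all libraries of the S364P line (31.0, 26.7 and 30.1) and of the insertion line (23.3, 26.9 and 29.6). The BAM1 difference at that temperature was -0.65 ± 0.0929 in the insertion line and -0.51 in the S364P line (limma, adjusted p = 5.7e-06 and 1.68e-04). At 16 °C the insertion line was lower (-0.62, adjusted p = 2.19e-05) and the S364P line at 35.5 ± 0.618 TPM against 39.9 ± 0.396 did not pass (-0.16, adjusted p = 0.692). The S364P libraries there were all below the wild-type libraries (35.0 to 36.2 against 39.5 to 40.2 TPM). That difference passed in a limma fit of these groups alone (adjusted p = 0.047). At 29 °C neither line passed, with differences of 0.07 and -0.03 (adjusted p = 0.606 and 0.86). The summed TPM of 5 guard cell markers was 26.5 to 41.0 in the insertion line at 22 °C against 47.2 to 56.2 in wild type. In the S364P line it was 44.4 to 57.6. Of these markers 4 were lower and 1 higher in the insertion line at 22 °C, against 18.4% and 24.6% of all tested genes. At 16 °C the sums overlapped, with 41.9 to 46.1 in the insertion line and 45.0 to 47.8 in wild type. The part of guard cells in the BAM1 differences was not tested.

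The balance of the 2 beta-amylase transcripts therefore shifted within each library. BAM3 exceeded BAM1 by 11.1 ± 0.406 (ratio of TPM, SD, n = 3) in wild type at 16 °C, 8.64 ± 0.713 at 22 °C and 5.16 ± 0.169 at 29 °C. The ratio in the S364P line was 8.08 ± 0.5001, 5.79 ± 0.635 and 0.996 ± 0.0992 at these temperatures. In the insertion line it was 5.25 ± 0.577, 2.83 ± 0.113 and 0.889 ± 0.183. At 29 °C the transcripts of both genes were thus about equally abundant in both lines, where wild type had several times more BAM3. This ratio was chosen after the values were seen and was not tested.

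**Figure D3:**
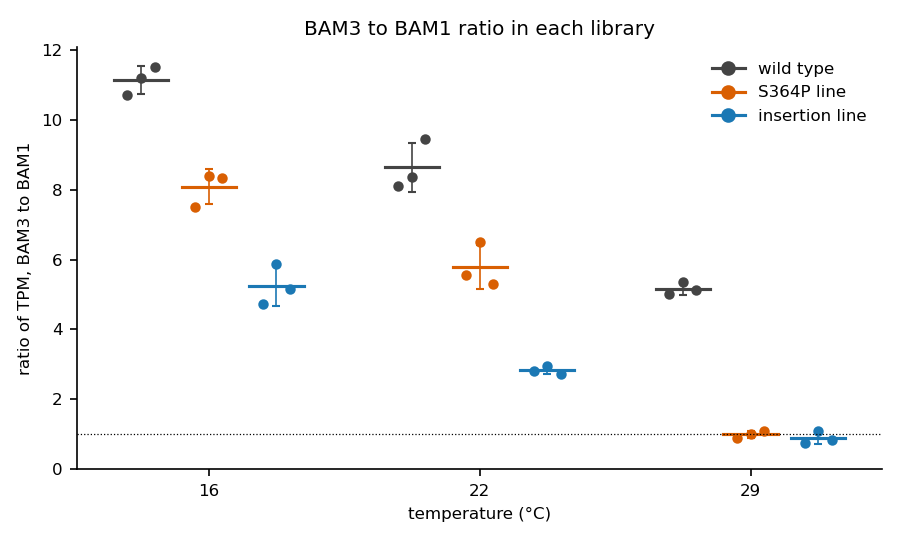
Ratio of BAM3 to BAM1 (TPM, linear axis from 0) in each library by temperature (°C) and genotype; points are libraries, horizontal bars means of 3, vertical bars ± 1 SD, and the dotted line marks equal levels. The ratio is highest in wild type at each temperature and lies around 1 in both lines at 29 °C.

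The members of starch phosphorylation and dephosphorylation, SEX1, PWD and SEX4, were higher in both lines at 22 and 29 °C. Related genes outside the members did not all go the same way. LSF1, a SEX4-like gene, was lower in both lines at 22 °C (-0.66 in the insertion line and -0.51 in the S364P line) and at 29 °C (-0.47 and -0.58). LSF2, a phosphoglucan phosphatase gene, was lower in both lines at 22 °C (-0.46 and -0.47) and in the insertion line at 29 °C (-0.23). GWD2, a further dikinase gene, was higher in both lines at 29 °C (0.67 in the insertion line and 0.80 in the S364P line). It was not called at 16 or 22 °C. LSF1, LSF2 and GWD2 are named after their values were seen. SEX4, the phosphoglucan phosphatase, was at 15.2, 17.2 and 16.1 TPM in wild type at 29 °C, at 31.1, 30.7 and 32.6 in the S364P line and at 30.04, 27.4 and 25.3 in the insertion line. Every library of the lines exceeded every wild-type library there. The same held at 22 °C, with 11.5, 10.5 and 11.3 TPM in wild type, 16.5, 15.6 and 15.6 in the S364P line and 22.5, 20.9 and 17.5 in the insertion line. The S364P line was higher by 0.49 ± 0.0925 at 22 °C and 0.92 at 29 °C (limma, adjusted p = 2.85e-04 and 5.33e-08), and the insertion line by 0.82 and 0.73 (adjusted p = 2.37e-07 and 1.35e-06).

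SEX1, the dikinase that opens starch breakdown, was at 24.6 ± 0.752 TPM in wild type at 29 °C against 41.7 ± 1.67 in the S364P line and 39.7 ± 0.0700 in the insertion line (SD, n = 3). These rises of 0.74 and 0.67 ± 0.0762 passed (limma, adjusted p = 8.79e-08 and 3.51e-07). At 22 °C SEX1 was higher by 0.28 in the insertion line (adjusted p = 0.0048). The rise of 0.20 in the S364P line (adjusted p = 0.0441) ended on leaving out any 1 of the 6 libraries, with a pseudocount of 5 and without a filter (adjusted p up to 0.148). At 16 °C SEX1 was lower in the insertion line, at 29.5 ± 3.36 against 35.6 ± 2.08 TPM (-0.27, adjusted p = 0.0114). That call ended without replicate 2 of either group and in a fit of these 2 groups alone (adjusted p up to 0.0964). PWD, which acts on glucans already phosphorylated by SEX1, rose at 22 °C from 29.6 ± 1.01 TPM in wild type to 38.1 ± 0.75 in the S364P line and 42.2 ± 2.57 in the insertion line (0.35 and 0.50, adjusted p = 8.02e-04 and 1.12e-05). At 29 °C it was higher by 0.51 and 0.43 (adjusted p = 1.14e-05 and 7.85e-05), and at 16 °C the differences of -0.28 and -0.09 did not pass (adjusted p = 0.0705 and 0.419).

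ISA3, the isoamylase that debranches granules during breakdown, had the largest rise among the members. At 29 °C it was at 6.63, 6.69 and 5.8 TPM in wild type, at 18.4, 17.3 and 14.8 in the S364P line and at 19.0, 14.5 and 15.6 in the insertion line. The lines exceeded wild type in every library. Wild-type libraries at 22 °C were at 6.28, 6.27 and 6.08 TPM, the S364P line 7.41, 7.39 and 7.86 and the insertion line 10.4, 10.4 and 8.61. ISA3 was higher at 29 °C by 1.27 ± 0.0907 in the S364P line and 1.23 in the insertion line (limma, adjusted p = 2.39e-10 and 4.01e-10), and at 22 °C by 0.58 in the insertion line (adjusted p = 1.97e-05). The rise of 0.25 in the S364P line at 22 °C (adjusted p = 0.0378) ended on leaving out any 1 of the 6 libraries and with a pseudocount of 5 (adjusted p up to 0.107). At 16 °C wild type was at 17.2 ± 1.05 TPM, the S364P line at 13.2 ± 0.797 and the insertion line at 15.2 ± 0.639, and the differences of -0.35 and -0.16 did not pass (adjusted p = 0.0567 and 0.203). The S364P call passed with a pseudocount of 5, under median-of-ratios scaling and under quantile normalization (adjusted p = 0.0417, 0.0322 and 0.0281).

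DPE1, the chloroplast glucanotransferase that recycles maltotriose, was at 21.4 ± 1.22 TPM in wild type at 29 °C, 33.2 ± 0.756 in the S364P line and 30.1 ± 1.83 in the insertion line (0.61 and 0.47 ± 0.061, limma, adjusted p = 5.11e-08 and 1.79e-06). At 22 °C it was higher by 0.22 and 0.45 (adjusted p = 0.00826 and 3.2e-06). DPE2, the cytosolic enzyme that acts on maltose, had the narrowest range among SEX1, PWD, SEX4, ISA3, DPE1 and DPE2 (1.67-fold between its highest and lowest group mean). It was at 18.5 ± 0.814 TPM in wild type, 24.7 ± 1.62 in the S364P line and 25.2 ± 1.08 in the insertion line at 29 °C (0.40 and 0.43 ± 0.0827, adjusted p = 5.28e-04 and 2.74e-04). At 22 °C the DPE2 differences of 0.15 and 0.16 did not pass (adjusted p = 0.159 and 0.118). All 8 neighbouring pairs in the order of DPE2 group means overlapped in range, compared with 3 of 8 for DPE1 and 4 of 8 for ISA3 and SEX1.

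APL3 encodes a large subunit of ADP-glucose pyrophosphorylase that is known from sugar-fed tissues and sinks more than from leaves. Its group means were 2.45 to 6.28 TPM, and in wild type it was the lowest of the members at each temperature. GBSS1 had lower group means than APL3 in the insertion line at each temperature and in the S364P line at 29 °C. At 29 °C it was at 3.23, 3.53 and 3.26 TPM in wild type, at 6.88, 5.31 and 5.02 in the S364P line and at 7.44, 5.96 and 5.45 in the insertion line, with no overlap with wild type. The differences of 0.62 and 0.74 ± 0.144 passed (limma, adjusted p = 0.00152 and 2.99e-04). At 16 and 22 °C the differences ran from -0.17 to -0.01 and none passed (adjusted p from 0.366 to 0.961).

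The 2 lines were also compared with each other. At 16 °C the S364P line had more GBSS1 (4.05 ± 0.159), BAM3 (1.09 ± 0.118) and BAM1 (0.46 ± 0.0929) than the insertion line and less SEX4 (-0.28), so 4 of 10 members were called against 19.2% of all tested genes (limma, adjusted p = 1.84e-14, 3.59e-07, 0.00101 and 0.0361). The SEX4 call ended under 7 of 13 alternatives (adjusted p up to 0.186), and that of BAM1 in a fit of these 2 groups alone (adjusted p = 0.0577). At 22 °C 5 members were called against 15.6% of all tested genes, GBSS1 (1.74) and BAM3 (1.16) higher and SEX4 (-0.33), ISA3 (-0.33) and DPE1 (-0.23) lower in the S364P line. Of these, GBSS1 and BAM3 were called under all 14 alternatives. The count was 3 without replicate 2 of the S364P line or replicate 1 of the insertion line, 2 without replicate 2 of the insertion line, 3 with median-of-ratios scaling and 2 in a fit of these groups alone. At 29 °C 0 of 10 members were called in limma, against 1.0% (214) of all tested genes, and DPE1 alone was higher at an unadjusted p under 0.05 (0.13, adjusted p = 0.275). The differences there ran from -0.11 for APL3 to 0.27 for GBSS1.

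Within genotypes, temperature and the listed time of day change together. From 16 to 22 °C in wild type 6 members were lower (ISA3, SEX4, SEX1, PWD, DPE1 and DPE2) and 0 were higher in limma, against 11.7% and 26.5% of all tested genes. At an unadjusted p under 0.05, 8 were lower and 0 higher, and no share of all tested genes was taken at that threshold. ISA3 fell there by 1.33 ± 0.0907 on the log2 scale and SEX4 by 0.93 (log2 differences -1.33 and -0.93, adjusted p = 3.4e-10 and 7.99e-08). GBSS1 (-0.34, adjusted p = 0.102) and BAM3 (-0.29, adjusted p = 0.0576) did not pass, although both passed with a pseudocount of 5 and with median-of-ratios scaling (adjusted p = 0.0215 to 0.0436). In the S364P line 5 members were lower and PWD was higher over this step, against 22.1% and 33.1%, with GBSS1 at -2.92 ± 0.159 and BAM3 at -0.76 ± 0.118 (adjusted p = 1.93e-12 and 1.13e-05). In the insertion line 6 were lower and DPE1 was higher, against 17.3% and 31.0%. The rises of PWD (0.19) and DPE1 (0.22) over this step did not pass under either other scaling (adjusted p up to 0.337 and 0.233 over all alternatives). The count of 7 in the insertion line was 4 without replicate 1 at 22 °C and 2 in a fit of these 2 groups alone.

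From 22 to 29 °C in wild type 5 members were higher and 2 lower (GBSS1 by -2.16 and BAM3 by -0.92, adjusted p = 9.59e-10 and 2.21e-06), against 28.8% and 9.05% of all tested genes. In the S364P line 8 were higher and 2 lower, against 43.3% and 10.4%, and in the insertion line 8 were higher and 1 lower, against 37.9% and 9.61%. ISA3 rose by 1.06 ± 0.0907 and 0.68 in the 2 lines over this step (limma, adjusted p = 3.57e-09 and 4.19e-06), and in wild type it was at 6.21 ± 0.113 and 6.37 ± 0.497 TPM (0.03, adjusted p = 0.831). GBSS1 in the insertion line was at 1.86 ± 0.551 and 2.26 ± 0.291 TPM over the same step (0.21, adjusted p = 0.305). The median of all tested genes over this step was 0.12, 0.22 and 0.19 in wild type, the S364P line and the insertion line, and near 0 with median-of-ratios scaling (-0.005, 0.02 and -0.001). Under that scaling, and also under quantile normalization, the rises of SEX1 and DPE2 in wild type, of BAM1 in the S364P line and of SEX4 in the insertion line did not pass. BAM1 in wild type passed as lower with both (-0.32, adjusted p = 0.00925 and 0.00581).

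The difference between genotypes itself changed between temperatures for most members, and the listed time of day changes with temperature in these interaction terms too. For the S364P line against wild type, 6 of 10 members changed in their difference from 16 to 22 °C, against 14.1% of all tested genes, and 8 of 10 from 22 to 29 °C, against 17.4%. For the insertion line these counts were 6 against 9.82% and 5 against 17.8%. The GBSS1 difference of the S364P line widened by -2.58 ± 0.225 from 16 to 22 °C (limma interaction, adjusted p = 6.42e-08), while BAM3 widened by -1.27 ± 0.167 from 22 to 29 °C (adjusted p = 1.71e-05). ISA3 moved upward relative to wild type over both steps in both lines.

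Across the 9 group means, members fell into blocks of similar pattern. Pearson's r on log2(TPM + 1) was 0.988 between PWD and DPE1, 0.929 between SEX1 and SEX4, 0.905 between SEX1 and ISA3 and 0.895 between GBSS1 and BAM3. BAM3 ran opposite to PWD (r = -0.856) and DPE1 (r = -0.869), and BAM1 had an r of 0.227 with BAM3. Among tested genes averaging 5 TPM or more, the most alike to GBSS1 were AT2G19650 (r = 0.998), AT2G41250 (r = 0.992) and NUDX19 (AT5G20070, r = 0.992). Those most alike to BAM3 were AT3G19480 (r = 0.996), AT3G01060 (r = 0.996) and AT3G56290 (r = 0.994). For PWD the closest of these genes was DPE1. The morning clock transcription factor genes CCA1 and LHY, looked up because evening elements are bound by CCA1, had r of 0.98 and 0.951 with BAM3 and 0.897 and 0.919 with GBSS1. Their r with SEX1, PWD, SEX4, DPE1, DPE2 and ISA3 ran from -0.855 to -0.416. PWD and DPE1 (-0.855 to -0.783) and SEX1 and ISA3 (-0.593 to -0.416) hold an evening element. SEX4 and DPE2 (-0.798 to -0.753) hold none in the scanned window. These values describe 9 points that share the same libraries for every gene and carry no test.

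Other genes of starch metabolism, 44 in 4 lists, were read in the same fit, and 41 passed the filter. BAM5, BAM6 and AMY1 did not. In the insertion line 5 were higher and 14 lower at 16 °C, 7 and 20 at 22 °C, and 10 and 15 at 29 °C, with median differences of -0.06, -0.21 and -0.01. As shares of the 41, these counts are to be read against 15.5% higher and 10.7% lower of all tested genes at 16 °C, 24.6% and 18.4% at 22 °C, and 24.8% and 13.5% at 29 °C. Counts in the S364P line were 3 and 1, 8 and 15, and 11 and 13, with medians of -0.05, -0.09 and -0.04, against 0.710% and 0.738%, 17.3% and 19.9%, and 24.5% and 13.7% of all tested genes. The 14 synthesis genes accounted for 7, 9 and 7 of the lower genes in the insertion line at 16, 22 and 29 °C and for 0, 6 and 7 in the S364P line. Higher synthesis genes numbered 0, 1 and 3 in the insertion line and 0, 0 and 3 in the S364P line. These were BE3, a branching enzyme gene, in the insertion line at 22 °C, and BE3 with the ADP-glucose pyrophosphorylase subunit genes APL2 and APL4 in both lines at 29 °C. APL1, the main leaf large subunit of ADP-glucose pyrophosphorylase, was at 60.5 ± 2.67 TPM in the insertion line at 29 °C against 125 ± 6.69 in wild type (-1.04 ± 0.0689, adjusted p = 6.47e-11), the opposite direction to APL3.

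Among the 41 other starch genes, the 2 with the largest differences from wild type at 22 °C, AMY3 and BAM9, are in the breakdown list and went opposite ways. AMY3, a chloroplast alpha-amylase gene, was at 3.55 ± 0.387 TPM in wild type at 22 °C against 28.4 ± 2.24 in the S364P line and 35.3 ± 2.34 in the insertion line (2.69 and 2.996 ± 0.0965, limma, adjusted p = 4.28e-15 and 2.42e-16). It was also among the few starch genes that rose in the S364P line at 16 °C (0.54, adjusted p = 0.00225). BAM9, a beta-amylase family gene whose product lacks catalytic activity, fell as BAM3 did. At 22 °C it was at 275 ± 20.6 TPM in wild type, 72.1 ± 6.79 in the S364P line and 35.6 ± 4.90 in the insertion line (-1.92 and -2.92 ± 0.105, adjusted p = 5e-12 and 1.57e-15). The cytosolic glucan phosphorylase gene PHS2 rose by 0.84 and 1.29 at 22 °C (adjusted p = 1.12e-08 and 4.27e-12), and the plastid phosphorylase gene PHS1 by 0.88 in the insertion line at 29 °C (adjusted p = 3.85e-08). PHS2 was also higher in the insertion line at 16 °C (0.79) and in both lines at 29 °C (0.98 and 0.85). PHS1 was also higher in the insertion line at 16 and 22 °C (0.46 and 0.77) and in the S364P line at 22 and 29 °C (0.58 and 0.90). The alpha-amylase gene AMY2 fell by 0.99 and 1.15 in the insertion line at 16 and 22 °C and by 0.89 in the S364P line at 22 °C (log2 differences -0.99, -1.15 and -0.89). MRC, a gene of starch granule initiation, fell by 1.09 in the insertion line at 16 °C (adjusted p = 3.08e-11). It was also lower in that line at 22 and 29 °C (-0.65 and -0.77) and in the S364P line at 22 and 29 °C (-0.27 and -0.71). ESV1, whose product organises glucans in the granule, rose by 0.63 in the S364P line at 16 °C (adjusted p = 0.01) and by 0.49 at 22 °C, and it was lower in that line at 29 °C (-0.51) and in the insertion line at 22 and 29 °C (-1.02 and -0.57). The plastid glucose transporter gene pGlcT rose by 0.28 in the S364P line at 16 °C (adjusted p = 0.0295), and by 0.39 and 0.61 at 22 and 29 °C. In the insertion line pGlcT was higher by 0.34, 0.47 and 0.58 at 16, 22 and 29 °C. GPT2, a glucose 6-phosphate translocator gene, rose by 1.64 ± 0.477 in the S364P line at 29 °C from 1.12 ± 0.519 to 6.77 ± 4.85 TPM (adjusted p = 0.00907).

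**Figure D4:**
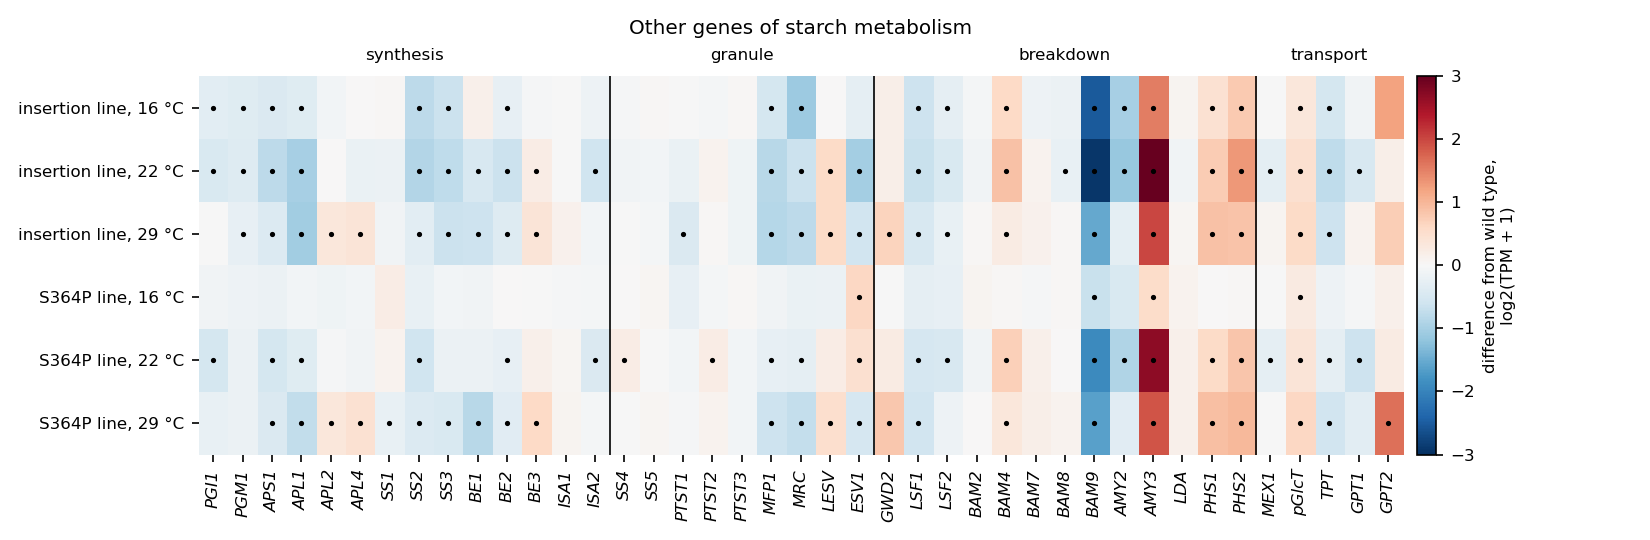
Differences from wild type on the log2(TPM + 1) scale (colour, red higher and blue lower, scale from -3 to 3) for the 41 tested genes outside the members (columns, by list) in each line and temperature (rows); dots mark genes called at adjusted p under 0.05. AMY3 is red and BAM9 blue in all 6 rows, and the row of the S364P line at 16 °C holds 4 dots.

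The libraries were similar in the features that TPM keeps. Each had 23430 to 23854 genes above 0, replicates correlated at r = 0.986 to 0.993 across genes, and no 2 libraries were identical. Depth is unknown, because TPM scales every library to the same total. All 6 leaf markers, 5 guard cell markers and 16 root markers were above 0 in at least 1 library of each group. The summed TPM of the leaf markers was 26799 to 31125 in both lines at 29 °C against 47605 to 50965 in wild type. At 16 °C it was 64647 to 67263 in wild type and 66309 to 69426 in the insertion line. In the S364P line it was 68617 to 71360 there, above wild type without overlap. At 22 °C the leaf marker sum was 60343 to 66440 in wild type, 64828 to 72735 in the S364P line and 54498 to 62240 in the insertion line. The root marker sum was 994.7 to 1475 TPM in the S364P line at 22 °C and 1131 to 1803 in the insertion line against 2429 to 3339 in wild type. At 29 °C it was 1316 to 2046 TPM in the S364P line and 2007 to 2356 in the insertion line against 2336 to 3113 in wild type, so the S364P line was again below wild type without overlap. Of the 16 root markers, 11 were lower in the S364P line at 22 °C and 6 at 29 °C, against 19.9% and 13.7% of all tested genes. In the insertion line 6 were lower and 1 higher at 22 °C, against 18.4% and 24.6%, and 2 were lower at 29 °C, against 13.5%. All 6 leaf markers were lower in both lines at 29 °C, against 13.7% of all tested genes in the S364P line and 13.5% in the insertion line. In whole seedlings, fewer cells of a type and less RNA per cell cannot be told apart, and the part of tissue make-up in the member differences was not tested.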

How the data were processed

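Messenger RNA of whole seedlings was measured in 27 libraries, 3 for each of 3 genotypes at 3 temperatures. The authors deposited 1 table of TPM values per gene and library with 2 decimals. The sources used here do not give the aligner, the quantifier or the genome build. The gene length in the table equalled that of a TAIR10.1 RefSeq transcript for 99.5% of 32547 matched genes and for all 10 members, so RefSeq TAIR10.1 was used for gene starts and sequences. The motif window was extended past the gene start after the upstream part had been examined. 1 table line without values was not analysed.

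A pseudocount of 1 was added before taking log2, and the 21396 genes reaching 1 TPM in 3 or more libraries were fitted with limma 3.58.1 (R 4.3.3), with a mean per group and a variance trend (18 residual and 3.17 prior degrees of freedom). 19 two-sided comparisons were adjusted by Benjamini-Hochberg over all tested genes, and every adjusted p of a gene is from this test. All members were named, with at most 4 called genes of the wider lists per line, temperature and wild-type comparison and the 3 genes most alike to a member. BE3, APL2, APL4, LSF1, LSF2 and GWD2 were named outside this limit. Genes named under it were also given in other comparisons. GBSS1 ratios, beta-amylase ratios and the clock genes were added after values were seen. The members and lists were chosen with earlier results of these data known. Alternatives were a pseudocount of 0.1 or 5, leaving the filter out or raising it to 5 TPM, scaling by median of ratios, normalizing by quantiles, the compared groups alone, a replicate block, and each library left out. For the insertion line at 16 °C, title and description numbers differ, so 2 columns are tied to the group only and its replicate numbers are those of the columns. Python 3.11.15, pandas 2.3.3, NumPy 2.4.6 and matplotlib 3.10.9 were used.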

Additional observations from a re-analysis of the deposited data

Results flagged for a closer look

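For 25 member effects the difference between a line and wild type changed between temperatures, by the interaction term of the limma fit (log2 scale, adjusted p under 0.05). Temperature and the listed time of day cannot be told apart in these terms. Positive values mean that the line moved up relative to wild type at the warmer temperature. No single library was tested as an outlier, because groups hold 3 libraries each.

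From 16 to 22 °C in the S364P line the change was -2.58 for GBSS1, 0.46 for SEX1, 0.63 for PWD, 0.84 for SEX4, 0.45 for DPE1 and 0.60 for ISA3. In the insertion line it was 0.55 for SEX1, 0.59 for PWD, 0.89 for SEX4, 0.55 for DPE1, 0.74 for ISA3 and -0.54 for BAM3 over the same step. The BAM3 value ended under 10 of 19 alternatives (adjusted p up to 0.12).

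From 22 to 29 °C in the S364P line the change was 0.90 for GBSS1, 0.64 for APL3, 0.54 for SEX1, 0.43 for SEX4, 0.49 for BAM1, -1.27 for BAM3, 0.39 for DPE1 and 1.03 for ISA3. In the insertion line it was 2.37 for GBSS1, 0.91 for APL3, 0.38 for SEX1, 0.72 for BAM1 and 0.65 for ISA3. GBSS1 was at 8.45 and 1.86 TPM in the 2 lines at 22 °C against 100.1 in wild type, so its positive values are a smaller gap at 29 °C, where wild type was at 21.6 TPM. In the S364P line the GBSS1 value ended with a pseudocount of 0.1 (adjusted p = 0.083), the APL3 value under 9 of 20 alternatives (adjusted p up to 0.118) and the SEX4 value under 5 of 20 (adjusted p up to 0.119).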

How the results depend on the processing

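Of 119 calls of a member in a comparison, 0 changed direction under any alternative. The number that still passed was 118 with a pseudocount of 0.1, 116 with a pseudocount of 5, 116 without a filter, 119 with a filter at 5 TPM, 107 with median-of-ratios scaling, 109 with quantile normalization and 108 in fits of the compared groups alone. At 16 °C, members called between the S364P line and wild type numbered 2, and 4 with median-of-ratios scaling. Between the lines at 16 °C the count of 4 was 2 in a fit of these groups alone. Between the lines at 22 °C the count of 5 was 3 with median-of-ratios scaling and 2 in the groups alone. In the insertion line from 16 to 22 °C the count of 7 was 2 in the groups alone. Leaving out 1 library each gave 2 to 5, 2 to 5 and 4 to 7 for the S364P line at 16 °C, the lines at 22 °C and the insertion line from 16 to 22 °C. For the lines at 16 °C it gave 3 to 5. The replicate numbers did not pair the libraries throughout: 13 of 84 same-numbered pairs correlated above 0.1 in their deviations (r from -0.272 to 0.263). Most of these pairs were replicates 1 and 2 of wild type and the S364P line at 22 and 29 °C. Between these 2 genotypes at 29 °C, r was 0.197 for replicate 1 and 0.263 for replicate 2. Over all groups, 8 of 24 libraries correlated best with their own number. With the replicate number as a block, the 15 comparisons without the insertion line at 16 °C gave 103 member calls against 98 without it, and those 98 all passed. Depth is unknown, which leaves APL3 and the low GBSS1 values of the lines without a counting error.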

Other observations

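The dikinase transcripts SEX1 and PWD, whose products act in sequence, did not keep a fixed ratio. In wild type the ratio of SEX1 to PWD was 0.876 ± 0.028 (TPM, SD, n = 3) at 16 °C, 0.706 ± 0.003 at 22 °C and 0.584 ± 0.0236 at 29 °C, with no overlap between temperatures. In the S364P line it was 0.887 ± 0.031, 0.634 ± 0.0182 and 0.689 ± 0.0122, and in the insertion line 0.771 ± 0.0167, 0.607 ± 0.0189 and 0.693 ± 0.0312. At 29 °C both lines lay above wild type and at 22 °C below it. The ratio was chosen after the values were seen and was not tested.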
